A study of Mus musculus with 4 samples.

Results

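The regions described here are strong H3K4me3 peaks that lie far from annotated promoters in mouse skeletal muscle. They are the autosomal peaks of the authors' replicated list with a signal value of at least 20 that lay over 5000 bp, measured from the nearest peak edge, from every GENCODE M21 transcription start site (TSS) of any gene type. A total of 824 of the 41009 autosomal replicated peaks met the rule, out of 13764 peaks that were strong and 14979 that were distal. The material was gastrocnemius, the large calf muscle, of adult female B6CASTF1/J mice aged 2 months, which are first-generation hybrids of C57BL/6J and CAST/EiJ. Pool E (biological replicate 1) and pool F (biological replicate 2) were each made of 2 biosamples and gave 2 technical libraries, so 4 libraries in all, with no treatment or genotype contrast. The signal value is the authors' own score of a peak, and it chose the regions together with the distance, so the members were chosen by measured values and these are given as description with no test.

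H3K4me3 is deposited by the SET1 and MLL complexes around transcription start sites, where CpG-rich DNA recruits part of the machinery. It marks promoters of RNA polymerase II, and nucleosomes that flank active tRNA genes, which RNA polymerase III transcribes, can carry it too. In this bulk tissue, fewer cells of a type and less mark per cell cannot be told apart.

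The list carried the marks of the labelled tissue. All 10 skeletal muscle genes checked, among them Ckm, Acta1 and Ttn, had a replicated peak within 1000 bp of a TSS, with signal values of 40.0 to 58.8. All 13 genes of vessel, fibroblast, macrophage, Schwann, satellite and smooth muscle cells had one too, with signal values of 6.02 to 38.4. None of Alb, Snap25 and Ddx4, genes of liver, neurons and germ cells, had one. The lists hold no read counts, so depth is unknown.

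Many of the strongest distal peaks lay at tRNA genes. RefSeq annotates nuclear tRNA genes, and the GENCODE file used for the distances does not, so these starts could not remove a peak from the set. Of the 824 strong distal peaks, 43 (5.22%, 95% Wilson interval 3.90 to 6.96%) had a RefSeq tRNA gene within 1000 bp, against 24 of 441 strong intermediate peaks (5.44%, 3.68 to 7.97%), 53 of 12499 strong promoter peaks (0.424%) and 28 of 14155 weak distal peaks (0.198%). The intervals of the strong distal and strong intermediate peaks overlap, so a tRNA gene nearby is not shown to be particular to the distal ones. Strong promoter peaks are those of signal value 20 or more within 1000 bp of a TSS, strong intermediate peaks those as strong at over 1000 and up to 5000 bp, and weak distal peaks those of lower signal value over 5000 bp away. The 15 highest strong distal peaks had signal values of 53.6 to 62.3 in the replicated list. Of these, 8 were at tRNA genes, and 19 of the highest 100 were.

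Genes under some of the highest tRNA peaks are shown because such peaks carry this result. A tRNA gene holds its own promoter inside the transcribed sequence, and the capitals mark the B box, GTTCGANNC, which TFIIIC contacts. One gene is given for each of 4 amino acids whose B box genes had peaks among the highest. Genes without these letters and tRNA-Met genes were passed over, so all 4 have the B box by selection. The sequences are from RefSeq on GRCm38.p6, read on the strand of the gene.
n-TEttc6, tRNA-Glu, chr14:76152774-76152845, plus strand: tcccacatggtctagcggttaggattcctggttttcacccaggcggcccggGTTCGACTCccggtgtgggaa
n-TLcaa1, tRNA-Leu, chr13:21200204-21200308, plus strand: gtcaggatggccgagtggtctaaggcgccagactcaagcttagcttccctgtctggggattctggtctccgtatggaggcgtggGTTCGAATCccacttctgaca
n-TFgaa5, tRNA-Phe, chr14:118089525-118089597, minus strand: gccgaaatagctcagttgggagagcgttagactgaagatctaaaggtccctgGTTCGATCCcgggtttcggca
n-TDgtc4, tRNA-Asp, chr1:171037029-171037100, minus strand: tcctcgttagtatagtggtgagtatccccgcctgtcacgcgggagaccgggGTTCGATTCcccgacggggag

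The highest strong distal peak of all, chr14:76151621-76153730, was 2110 bp wide and held n-TEttc6. Its signal value was 67.9 in pool E, 57.7 in pool F and 62.3 in the replicated list, and the nearest GENCODE TSS, of Nufip1, was 40.7 kb away. A peak of 1505 bp at chr1:74816424-74817928 held n-TGgcc3, a tRNA-Gly gene, with 65.6 in pool E, 55.01 in pool F and 59.7 in the replicated list. The peak at n-TLcaa1, 9243 bp from Trim27, had 62.9 in pool E and 52.5 in pool F. That at n-TDgtc4 reversed the order of the pools, with 49.7 in pool E and 52.8 in pool F, and held 3 tRNA genes.

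Among the strong distal peaks, all chosen at a signal value of at least 20, the tRNA peaks had a higher median signal value and width than the rest. Their median signal value was 42.5 (quartiles 33.2 and 48.5), against 27.4 (23.1 and 35.6) for the 781 strong distal peaks with no tRNA gene. Their median width was 1987 bp, against 1281 bp without a tRNA gene. Strong distal peaks at protein-coding RefSeq starts were nearly as wide, with a median of 1876 bp, and width goes with the signal value. The 28 weak distal peaks at tRNA genes fell below the limit and are not in these medians. The signal values overlapped widely, since tRNA peaks went down to 20.1 and the other peaks up to 60.2. Only 2 of the 43 lay in a GENCODE gene body.

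**Figure D1:**
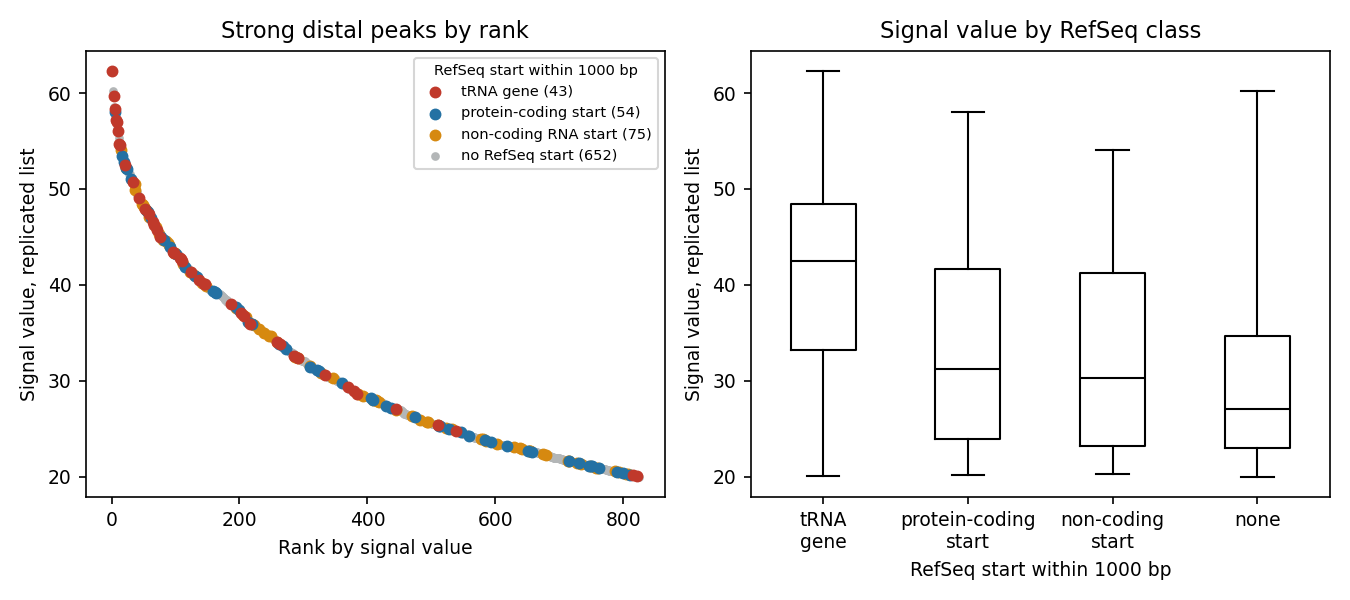
Left, signal value in the replicated list (y) against rank (x) for the 824 strong distal peaks, coloured by the RefSeq start within 1000 bp. Right, the same values by class, with boxes over the interquartile range, a line at the median and whiskers to the lowest and highest peak; the tRNA class has a median of 42.5, and the class with no RefSeq start 27.03.

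Viewed from the tRNA genes, 250 of the 386 autosomal RefSeq tRNA genes (64.8%, 59.9 to 69.4%) had a replicated peak within 1000 bp, and 195 (50.5%) a strong one. A total of 209 tRNA genes lay over 5000 bp from every GENCODE TSS, and 84 of these (40.2%, 33.8 to 47.0%) had a strong peak. The strong distal peaks accounted for 70 tRNA genes of 17 isotypes out of 20, among them 9 of 25 tRNA-Leu genes, 6 of 28 tRNA-Gly genes and 4 of 7 tRNA-Phe genes. No tRNA-Cys, tRNA-Trp or tRNA-Tyr gene was at a strong distal peak. A replicated peak of any kind was near 7 of 8 tRNA-Trp genes and 7 of 10 tRNA-Tyr genes, and near 4 of 57 tRNA-Cys genes. The B box letters were present in 56 of the 70 tRNA genes at strong distal peaks (80%) and in 56 of the 136 tRNA genes with no peak (41.2%), and over all 386 in 60.9%. Among the genes with no peak 53 were tRNA-Cys, of which 1 had the letters. Without tRNA-Cys, a split made after the values were seen, 55 of 83 genes with no peak had them (66.3%). Copies of a sequence elsewhere in the genome were sought at peaks only, so repeats at tRNA genes with no peak were not examined.

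The tRNA gene was seldom at the summit. Over the 70 genes, the middle of the gene lay a median of 324 bp from the peak's summit (quartiles 230 and 599 bp). Every gene of a peak was counted, so peaks with several tRNA genes add their farther ones. Of the 70 genes, 65 were wholly inside the peak. The B box was searched on both strands. In the 300 bp around the summit it occurred in 1 of the 43 tRNA peaks and in 1.09% of all strong distal peaks. It occurred there in 0.454% of strong intermediate, 1.64% of strong promoter and 0.586% of weak distal peaks. In whole peaks it occurred in 35 of the 43 tRNA peaks (81.4%), in 10.7% of all strong distal peaks, in 16.9% of strong promoter peaks and in 1.53% of weak distal peaks. A total of 14 tRNA peaks held 2 or more tRNA genes, and the most at one peak was 5. On chromosome 13, 14 tRNA peaks lay within 2.30 Mb, from position 21158265 to 23454425, with signal values of 20.1 to 58.3, and every strong distal peak in that stretch was at a tRNA gene.

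RefSeq also listed other starts that GENCODE M21 does not. In all, 172 strong distal peaks (20.9%, 18.2 to 23.8%) had a RefSeq start within 1000 bp, against 97 of 441 strong intermediate peaks (21.995%, 18.4 to 26.1%), 97.2% of strong promoter peaks and 5.72% of weak distal peaks. Over all autosomal distal peaks the share was 6.56%. A start of a protein-coding gene was near 54 peaks, and a non-coding RNA start, with neither of the other kinds, near 75. Curated RefSeq transcript records gave a start near 29 peaks (3.52%), against 3.401% of strong intermediate peaks.

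Of the 54 peaks at protein-coding RefSeq starts, 49 belonged to genes that GENCODE M21 names, at a median of 22.7 kb from the nearest GENCODE TSS of the same gene. Curated records gave 14 of the 54, and the starts of both genes described next are models that RefSeq predicted. Tln2 encodes talin 2, which links integrins to actin in striated muscle. The peak at its RefSeq start, chr9:67631681-67634763, lay 72.0 kb from its GENCODE TSSs, with 63.7 in pool E, 54.0 in pool F and 58.0 in the replicated list. Lpin1, a phosphatidate phosphatase of lipid synthesis, had a peak 32.8 kb from its GENCODE TSSs, with 42.0 in pool E and 36.9 in pool F. Its CpG ratio was 0.15, among the 5 lowest of the set.

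Most strong distal peaks, 652 of 824 (79.1%), had no RefSeq start within 1000 bp. Their median signal value was 27.03 and their median width 1240 bp. The highest by signal value other than the peak at Lncppara was chr12:8640056-8641774, 32.4 kb upstream of Pum2, an RNA-binding repressor of translation. It had 63.7 in pool E, 54.5 in pool F and 58.6 in the replicated list. Another lay 10.3 kb downstream of a TSS of Fos, the immediate-early transcription factor, with 59.4 in pool E and 47.5 in pool F. A peak of 1228 bp lay 5569 bp upstream of Wnt2b, a secreted Wnt ligand, with 57.3 in pool E and 50.9 in pool F.

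Width set a few regions apart from the rest. The median width was 1297.5 bp (quartiles 988.5 and 1793 bp), against 1385 bp for strong intermediate peaks, 2337 bp for strong promoter peaks and 539 bp for weak distal peaks. Width goes with the signal value that chose the peaks. The widest, 18999 bp at chr15:85663691-85682689, lay in the body of the non-coding gene Lncppara, 10.1 kb downstream of its start, and 52.3 kb from Ppara, which encodes the nuclear receptor that drives fatty acid oxidation. Its signal value was 47.9 in pool E, 56.2 in pool F and 60.2 in the replicated list, and the width came to 18552 bp for pool E, with 18889 bp for pool F.

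**Figure D2:**
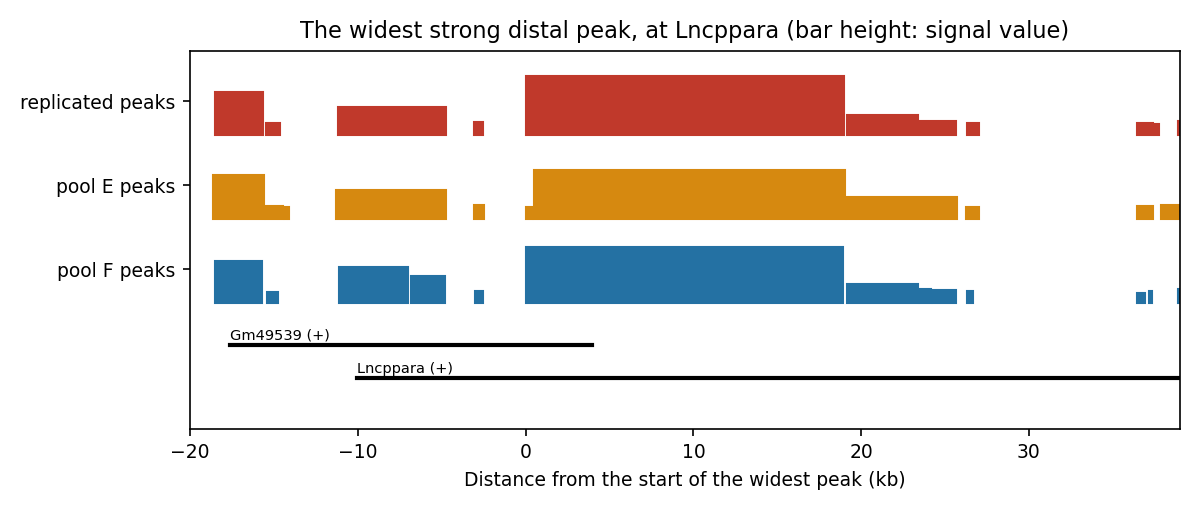
Peaks of the replicated, pool E and pool F lists (bar height in proportion to signal value) and GENCODE genes with their strand, by distance in kb from the start of the widest strong distal peak. One block of 18999 bp stands in the replicated list, and blocks of 18552 bp and 18889 bp in the lists of pool E and pool F.

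The next 4 by width were nearest to Zbtb16, Nfib, Kmt2e and Nr1d1. Zbtb16, a zinc finger transcription factor, held an intronic peak of 10436 bp, whose signal value of 20.7 was close to the minimum. In the pools it was uneven, at 31.2 and 7985 bp in pool E and 20.1 and 10352 bp in pool F. An intronic peak of 6656 bp in Nfib, a nuclear factor I gene, had 43.6 in pool E and 28.3 in pool F. Peaks of 6338 bp and 6280 bp lay upstream of Kmt2e, a relative of the H3K4 methyltransferases, and of Nr1d1, the clock repressor Rev-erb alpha. The Kmt2e peak had 52.1 in pool E and 44.9 in pool F, and the Nr1d1 peak 33.1 in pool E and 21.7 in pool F.

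Place in the genome differed from that of the weaker distal peaks. A total of 291 strong distal peaks (35.3%, 32.1 to 38.6%) overlapped a gene body, against 55.1% (50.4 to 59.7%) of strong intermediate peaks and 61.8% (61.0 to 62.6%) of weak distal peaks, and 60.4% of all autosomal distal peaks did. Gene bodies cover 41.2% of the autosomal sequence over 5000 bp from every TSS. Protein-coding bodies held 237 of the 291. Within them, 177 summits were intronic, 44 were in coding exons and 10 in untranslated regions. The 177 were 21.5% of all 824, against 22.7% of strong intermediate and 52.1% of weak distal peaks. The 44 were 5.34%, against 14.3% of strong intermediate and 2.76% of weak distal peaks. The 10 were 1.21%, against 3.63% of strong intermediate and 1.46% of weak distal peaks. Of the 229 peaks with a single host gene at the summit, 64 lay in the first part of the gene when it is cut in 3 equal lengths, 79 in the middle and 86 in the last. The rule itself takes away peaks within 5000 bp of a TSS, so it thins the first part. The median place was 56.9% of the way along the gene. It was 45.3% for weak distal peaks, under the same distance limit, and 66.7% for strong intermediate peaks. The host gene had a peak at its own promoter in 217 of 237 cases (91.6%), against 79.2% for strong intermediate peaks and 97.1% for weak distal peaks.

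The median CpG ratio was 0.68 at the 54 peaks with a summit in a coding exon or untranslated region and 0.67 at the 43 tRNA peaks, against 0.49 over all 824. The CpG ratio is observed over expected CpG over 500 bp on each side of the summit. Over all strong distal peaks the quartiles were 0.37 and 0.65, against 0.62 and 0.85 for strong promoter peaks with a median of 0.74, and 0.22 and 0.37 for weak distal peaks with a median of 0.29. Strong intermediate peaks had a median of 0.53. A CpG-rich window, where the ratio reached 0.75 and GC content reached 55%, was found at 72 strong distal peaks (8.74%), at 7.48% of strong intermediate peaks, at 44.2% of strong promoter peaks and at 0.389% of weak distal peaks.

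**Figure D3:**
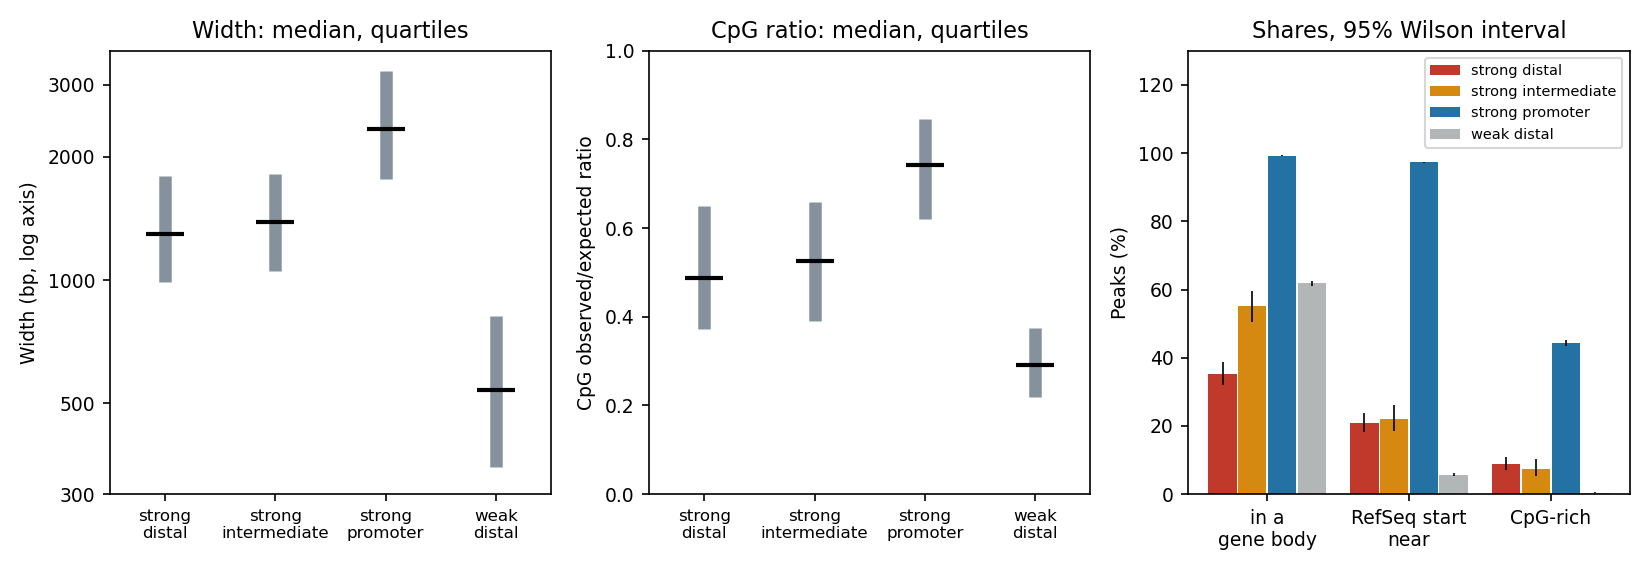
Width (bp, log axis) and CpG ratio, each as median (line) and interquartile range (bar), and percent of peaks that overlap a gene body, have a RefSeq start within 1000 bp or are CpG-rich, with 95% Wilson intervals. Strong distal peaks lie close to strong intermediate peaks in width (medians 1297.5 and 1385 bp), CpG ratio (0.49 and 0.53) and RefSeq starts (20.9% and 21.995%), and below every other group in gene body share, at 35.3%.

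The range of CpG content is shown by 200 bp at the summits of 4 peaks, from RefSeq GRCm38.p6 on the plus strand, with every CpG in capitals. They are the widest peak, the highest peak with no RefSeq start apart from it, the peak with the highest CpG ratio among those of at least 55% GC, and the one with the lowest ratio. Windows that touch an exon of a protein-coding transcript were passed over.
Lncppara, chr15:85671735-85671934: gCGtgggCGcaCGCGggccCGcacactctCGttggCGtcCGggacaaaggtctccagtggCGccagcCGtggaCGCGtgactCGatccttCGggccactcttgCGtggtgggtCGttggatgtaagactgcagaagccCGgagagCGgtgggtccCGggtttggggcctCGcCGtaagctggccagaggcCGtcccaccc
Upstream of Pum2, chr12:8640843-8641042: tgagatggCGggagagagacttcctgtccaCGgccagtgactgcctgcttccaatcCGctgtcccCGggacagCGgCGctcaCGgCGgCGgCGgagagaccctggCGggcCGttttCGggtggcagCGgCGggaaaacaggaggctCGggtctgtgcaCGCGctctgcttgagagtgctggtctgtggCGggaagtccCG
Upstream of Chd7, chr4:8647313-8647512: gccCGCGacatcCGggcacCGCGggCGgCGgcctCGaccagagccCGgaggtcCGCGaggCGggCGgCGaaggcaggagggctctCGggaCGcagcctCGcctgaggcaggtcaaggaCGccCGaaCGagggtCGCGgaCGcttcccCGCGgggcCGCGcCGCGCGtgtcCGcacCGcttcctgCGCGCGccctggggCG
Outside GENCODE genes on chromosome 6, at a RefSeq non-coding RNA start, chr6:14608446-14608645: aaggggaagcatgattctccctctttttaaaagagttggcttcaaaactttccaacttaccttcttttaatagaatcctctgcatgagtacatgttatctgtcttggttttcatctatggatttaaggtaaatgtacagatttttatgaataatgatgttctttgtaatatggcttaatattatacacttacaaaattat
The Lncppara window held 22 CpG, the Pum2 window 20, the Chd7 window 36 and the chromosome 6 window 0. The nearest GENCODE TSS was of Gm11809 at the Chd7 window and of Gm44446 at the chromosome 6 window. The Chd7 peak, named for its nearest protein-coding gene, a chromatin remodeller, had 53.6 in pool E and 48.4 in pool F. The chromosome 6 peak had 28.2 in pool E and 21.2 in pool F.

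The 5 highest CpG ratios, 1.04 to 1.14, belonged to peaks nearest to Dctpp1, Snx20, Exoc3l2, Nrg2 and Chd7, and the first 4 of these lay in protein-coding gene bodies. The 5 lowest, 0.04 to 0.15, belonged to peaks nearest to Ppp1r3a, Rapgef1, Acta1 and Mrps23 and to the peak at the RefSeq start of Lpin1. The genes named as nearest are protein-coding, at any distance, and other genes can have a closer TSS. Ppp1r3a encodes a glycogen-targeting subunit of protein phosphatase 1 in muscle, and Acta1 the actin of skeletal muscle thin filaments. The peak nearest to Acta1 lay 11.5 kb downstream of its TSS, was 3417 bp wide and had 26.4 in pool E and 28.5 in pool F.

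Short motifs were counted in the 300 bp at the summit, on both strands. The GC box GGGCGG, bound by Sp and Klf factors, was present at 36.8% of strong distal peaks, 55.8% of strong promoter peaks and 11.5% of weak distal peaks. The ETS motif CCGGAAG was present at 7.16% of strong distal peaks, 8.69% of strong promoter peaks and 3.01% of weak distal peaks. The E-box CAGCTG of myogenic factors was at 24.3% of strong distal peaks, 16.9% of strong promoter peaks and 23.9% of weak distal peaks. The MEF2 letters CTAAAAATA were at 2 of 824 strong distal peaks (0.243%) and 17 of 12499 strong promoter peaks (0.136%). They were at 186 of 14155 weak distal peaks (1.31%). TATAAA was at 7.52% of strong distal peaks, 2.40% of strong promoter peaks and 13.04% of weak distal peaks. Strong intermediate peaks had the GC box at 38.3%, the ETS motif at 9.07% and the E-box at 18.8%. They had MEF2 at 0.454% (2 of 441) and TATAAA at 9.30%. In whole peaks, which differ in width, several of these orders turned. The E-box was then at 60.3% of strong distal peaks, 69.9% of strong promoter peaks and 39.6% of weak distal peaks. MEF2 was at 3.398% of strong distal peaks, 5.13% of strong promoter peaks and 3.13% of weak distal peaks. TATAAA was at 43.3% of strong distal peaks, 58.4% of strong promoter peaks and 26.5% of weak distal peaks. Whole strong intermediate peaks had the E-box at 59.9%, MEF2 at 1.59% and TATAAA at 38.8%. A match is a run of letters and not a binding site.

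For 411 strong distal peaks (49.9%) the nearest TSS was of a protein-coding gene, against 57.1% of weak distal peaks. It was of a lincRNA for 119 (14.4%), against 12.02% of weak distal peaks, and of a processed pseudogene for 113 (13.7%), against 10.4% of weak distal peaks. The median distance to the nearest TSS was 13.8 kb, and 274 peaks lay at 5 to 10 kb, 349 at 10 to 25 kb, 137 at 25 to 50 kb, 54 at 50 to 100 kb and 10 beyond 100 kb. The nearest protein-coding gene had a marked promoter for 724 peaks (87.9%), against 83.7% for strong intermediate peaks and 92.6% for weak distal peaks. The peaks had 738 different nearest protein-coding genes, and 668 of these had 1 peak.

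Among the genes of muscle and regulatory lists, 46 strong distal peaks (5.58%) had a listed nearest protein-coding gene, against 6.27% of weak distal peaks. The list of 73 developmental transcription factors took 18 peaks (2.18%, against 2.34% of weak distal peaks), and that of 46 muscle energy metabolism and clock genes took 10 (1.21%, against 0.798% of weak distal peaks). The 35 muscle transcription factors took 9 (1.09%, against 0.961% of weak distal peaks), and the chromatin and RNA control list, with 29 protein-coding genes found, took 6 (0.728%, against 0.325% of weak distal peaks). The 53 sarcomere and triad genes took 2 (0.243%, against 1.10% of weak distal peaks), and the 33 vessel, fibroblast and nerve genes took 1 (0.121%, against 0.756% of weak distal peaks). Insr, the insulin receptor, held an intronic peak with 50.2 in pool E and 40.5 in pool F. Near Myl3, the slow and cardiac myosin light chain, a peak had 40.0 in pool E and 37.1 in pool F. Pax3, the myogenic paired-box factor, had a peak 5793 bp upstream with 38.9 in pool E and 34.9 in pool F, which overlapped a RefSeq enhancer record. The intronic peak of Pax7, the satellite cell factor, had 21.1 in pool E and 19.9 in pool F and was 5254 bp wide. RefSeq enhancer records overlapped 20 strong distal peaks (2.43%), near Fos, Fosb, Btg2 and Bach2 among others, and with the n-TGgcc3 peak among them. The share was 0.907% for strong intermediate peaks (4 of 441) and 1.13% for weak distal peaks. Overlap was taken over the whole peak, and weak distal peaks were narrower (median 539 bp, against 1297.5 bp). The part of width in this share was not tested.

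Within 10 kb of another strong distal peak lay 55 of them (6.67%), in 25 runs, of which the longest held 4 peaks. The share depends on the gap allowed: it was 2.06% at 1 kb, 5.10% at 5 kb and 16.4% at 50 kb, where the largest run held 10 peaks. Such runs were not counted for other peak groups. Another replicated peak of any strength lay within a gap of 1 kb for 10.9% of strong distal peaks. For strong intermediate peaks it was 21.8%, for strong promoter peaks 21.0% and for weak distal peaks 23.0%. A run of 3 lay over 12.7 kb near Bahcc1, with signal values of 35.2 to 39.8, and another over 6136 bp nearest to Mir148a, with 23.3 to 32.2. A further run of 3 peaks over 19.5 kb near Trim27 held tRNA genes at each. Per chromosome the density ran from 0.22 per Mb on chromosome 1 to 0.60 per Mb on chromosome 11, which had 73 peaks and also the most strong promoter peaks per Mb (8.65). Per 100 strong promoter peaks there were 6.91 strong distal peaks on chromosome 11, with the extremes at 4.13 on chromosome 5 and 10.85 on chromosome 18. A second copy of the summit window, at 95% identity over 80% of its length, was found for 9 peaks (1.09%). This is near the shares of strong intermediate (0.907%), strong promoter (0.832%) and weak distal peaks (0.685%). Among the 9, a peak near Camk2b had 61 copies.

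Both pools held a peak at every strong distal peak, though not always with a signal value of 20. All 824 (100%, 99.5 to 100%) were overlapped by a peak of pool E and by one of pool F. So were all 441 strong intermediate and all 12499 strong promoter peaks, against 74.5% of weak distal peaks and 83.7% of all autosomal replicated peaks. The replicated list derives from both pools, so this is a description. In the pools' own lists, 812 of the 824 reached a signal value of 20 in pool E and 686 (83.3%) in pool F. A total of 681 (82.6%) did so in both and 7 in neither. Both pools reached 20 at 86.6% of strong intermediate peaks and 97.8% of strong promoter peaks. The signal value was higher in pool E for 767 of the 824. The median ratio of E over F was 1.20 (10th to 90th percentile 1.04 to 1.41). For strong promoter peaks the median ratio was 1.16, and 91.5% were higher in pool E. The signal value has no stated scale, so 20 may not mean the same in both pools' lists. Across the 824 peaks the rank correlation (Spearman) between the pools was 0.87 and Pearson's r 0.91, a description over peaks that share their libraries. Summits differed by a median of 18 bp.

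**Figure D4:**
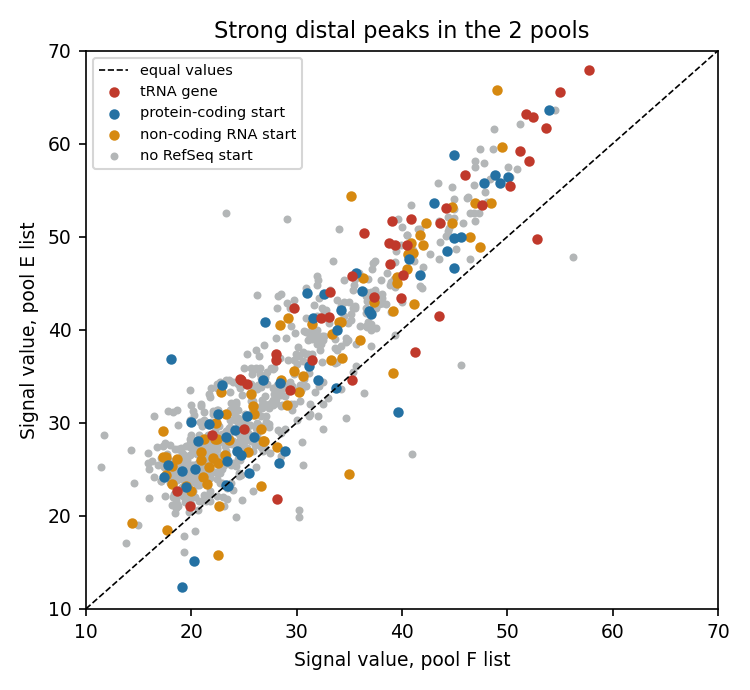
Signal value of each strong distal peak in the pool E list (y) against the pool F list (x), coloured by RefSeq class, with a dashed line at equal values. A total of 767 of the 824 peaks lie above the line.

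A few peaks departed from that ratio, and they were picked after their values were seen. A peak nearest to Ntng1 had 28.6 in pool E and 11.7 in pool F, a ratio of 2.45, and one nearest to Spen had 52.6 in pool E and 23.3 in pool F. In the other direction, a peak nearest to Ank2 had 12.4 in pool E and 19.2 in pool F, a ratio of 0.65, and one nearest to Wrb had 26.7 in pool E and 41.0 in pool F.

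At the limits of the rule, the lowest strong distal peak had a signal value of 20.01, near Akap13, and the highest that missed it had 19.998, near Sept9. The peak just past the distance limit lay 5040 bp from a TSS of Dll4, with a signal value of 43.6, and the one just short of it 4996 bp from a TSS of Zfp608, with 26.1.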

How the data were processed

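H3K4me3 ChIP-seq peaks of gastrocnemius were taken from 4 lists deposited for 2 pools of 2 technical libraries each. Per the deposited text files, the lists derived from filtered alignments of pool E, pool F or both; neither aligner nor peak caller is given in the sources used here. The authors' signal value of a peak has no stated scale. It was used to rank and filter within a list, and to compare the lists of pool E and pool F at the same peaks. The deposited −log10 q-value served for 1 alternative. Depth is unknown, and intervals cover counting error only. The summit offset in bp is also the authors'.

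Coordinates are mm10. TSSs and genes came from GENCODE M21; sequence, further starts and tRNA genes came from RefSeq GRCm38.p6, the same build. Overlap between lists needed 1 bp. Peaks were joined into runs at gaps of 10000 bp. Printed windows were drawn from the other autosomes than chromosome 18. Second copies were sought with minimap2 2.31, and tables were made with pandas 2.3.3 and scipy 1.17.1. Interval steps were tested on simulated data. No test was run: peaks are not replicates, and the pools are the only replicates.

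The regions, gene lists and motifs were chosen with earlier results of these data known, and the B box, the tRNA classes, the split by tRNA-Cys and the chromosome 13 stretch after the values were seen. Peaks were named as the highest, the widest, those in runs, at listed genes, at RefSeq starts, at extremes of CpG ratio and at the limits of the rule; of these, a selection is described. Alternatives were other signal and distance limits, TSS sets, lists, windows and identities. Some items that the naming rule took are not reported here.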

Additional observations from a re-analysis of the deposited data

How the results depend on the processing

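The number of strong distal peaks, 824, became 1371 with a signal value minimum of 15, 527 with 25, and 1403 with TSSs of protein-coding genes only. It was 587 with GENCODE and RefSeq TSSs together and 781 without the tRNA peaks, an alternative chosen after seeing the data. From one pool's list it was 706 to 1062. The gene body share of 35.3% became 28.8% for protein-coding bodies only, 39.2% at a signal minimum of 15 and 39.0% at over 2500 bp, and 34.4 to 37.8% from one pool's list. The median width was 1277 to 1301 bp from one pool's list. The share overlapped in both pools was 100% also with the stricter overlap. Motif shares depend on the window: in whole peaks the GC box reached 65.3% and the B box 10.7%, and the order of the peak groups turned for the E-box, MEF2 and TATAAA. The share near another strong distal peak ran from 2.06% at 1 kb to 16.4% at 50 kb, beside 6.67% at 10 kb. The share near a RefSeq start was 17.7% at 0 bp and 24.6% at 2500 bp. No paired analysis was possible because no result comes from a test between groups. Unknown depth and 2 pools limit the precision of all values.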
